A study of Homo sapiens with 14 samples.

Results

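Integrins are receptors made of an alpha and a beta subunit that bind cells to the extracellular matrix or to other cells, and syndecans are cell surface proteoglycans that act beside them. The 30 genes described here are 18 integrin alpha subunits, 8 integrin beta subunits and the 4 syndecans. They were chosen by gene family, with earlier results of these data known. Their transcripts were matched to the array by the accession of each probe, which gave 35 probes for the 30 genes, out of 50599 probes and 20988 named genes on the array.

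The human glioblastoma lines A172 and U87-MG, called U87 in the labels, received by electroporation (1 pulse of 1300 V for 30 ms) either a negative control siRNA without an RNA target or an siRNA against the first exon of LINC00152, each at 20 pmol/ml. RNA was taken at 40 hours per the labels, while the text of the paper gives a longer time. Each line has 1 control group and 1 knockdown group, with 3 independent biological experiments in A172 and 4 in U87-MG, and a set number joins the control and the knockdown array of an experiment. A single siRNA was used in cultures of established lines, so an effect of the siRNA sequence on other transcripts cannot be told apart from that of LINC00152.

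Each integrin alpha subunit pairs with 1 or a few beta subunits, and the pair decides what is bound: laminins, collagens, ligands with the peptide motif RGD such as fibronectin and vitronectin, or receptors on other cells. Bound integrins gather talin, kindlin, paxillin and focal adhesion kinase at adhesion plaques and so join the matrix to actin. Syndecans carry heparan sulfate chains that hold matrix proteins and growth factors, and SDC4 is known as the syndecan of focal adhesions. In glioblastoma, integrins such as ITGAV with ITGB3 and ITGA6 with ITGB1 are known for their part in cell migration through brain tissue.

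The array holds 58717 spots besides controls, and values are log2 of the processed signal relative to the array's 75th percentile, so that 0 is the level below which 75% of the spots lie. A spot was well above background for a median of 64.0% of spots in A172 arrays (57.3% to 69.0%) and of 46.0% in U87-MG arrays (35.7% to 48.3%). The 2 arrays of U87-MG set 3 were the dimmest, with 35.7% of spots well above background in the control and 40.4% in the knockdown array, and the probes called in U87-MG are also given without them. All 8 U87-MG arrays were on 1 slide and the 6 A172 arrays on 3 others, 1 set per slide, so line and slide cannot be told apart. The number of arrays limits the precision of every value.

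The target was measured first, by the CYTOR probe, the gene symbol of LINC00152. Its control values in A172 were 2.63, 2.44 and 2.48, and its knockdown values were 0.23, -0.42 and -0.10. In U87-MG the control values were 1.94, 1.83, 1.71 and 1.82, and the knockdown values -1.21, -0.88, -0.74 and -0.79. In both lines every knockdown array lay below every control array. By limma, CYTOR fell in A172 to 16.3% of control (log2 fold change -2.61, SE 0.239, adjusted p = 0.000731) and in U87-MG to 15.1% (-2.73, SE 0.207, adjusted p = 4.96e-05, and -2.82 without the dim set 3). With other settings of the processing the U87-MG value lay between -2.73 and -1.77 (limma's adjusted p up to 0.00294). In bulk RNA, fewer cells expressing a transcript and less of it per cell cannot be told apart.

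Of 8 markers of glioma and astroglial cells, VIM, NES and CD44 were well above background on all 14 arrays. SOX2 and OLIG2 were so on all 6 A172 arrays, while in U87-MG SOX2 was on 0 of 8 and OLIG2 on 3 of 8. GFAP reached it on 1 array by 1 of its 2 probes, and S100B and FABP7 on none, so 3 defining astroglial markers were dim in nearly all arrays.

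The integrins and syndecans ranged from transcripts on every array to transcripts on none, and 27 of the 30 genes were well above background on at least 1 array by at least 1 probe. The 13 probes on all 14 arrays belong to ITGA3, ITGA5, ITGA7, ITGA9, ITGA11, ITGAE, ITGAX, ITGB1, ITGB5, ITGB7, SDC1, SDC3 and SDC4. The 4 probes on no array belong to ITGA10, ITGAL, ITGB2 and ITGAD, of which ITGAD has a second probe that was well above background on 6 arrays. Detection differed between the lines for some subunits. ITGB3, the beta subunit that forms the vitronectin receptor with ITGAV, was on 8 of 8 U87-MG arrays and 0 of 6 in A172. ITGAM, an alpha subunit known from myeloid cells, was on 6 of 6 A172 arrays and 0 of 8 in U87-MG. Its A172 values of -2.45 to -2.24 lie below the lowest signal that counted as well above background on the U87-MG knockdown arrays (mean -2.06), so this is not shown to be a difference between the lines. SDC2 was on 1 array, U87-MG control set 4, at 1.34, against -4.37 to -3.30 on the other U87-MG control arrays. A probe was tested in a line if 3 or more arrays of its control or knockdown group showed it above background, which gave 21 probes of 19 genes in A172, 17 probes of 17 genes in U87-MG and 16 probes in both, leaving 13 probes tested in neither.

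**Figure D1:**
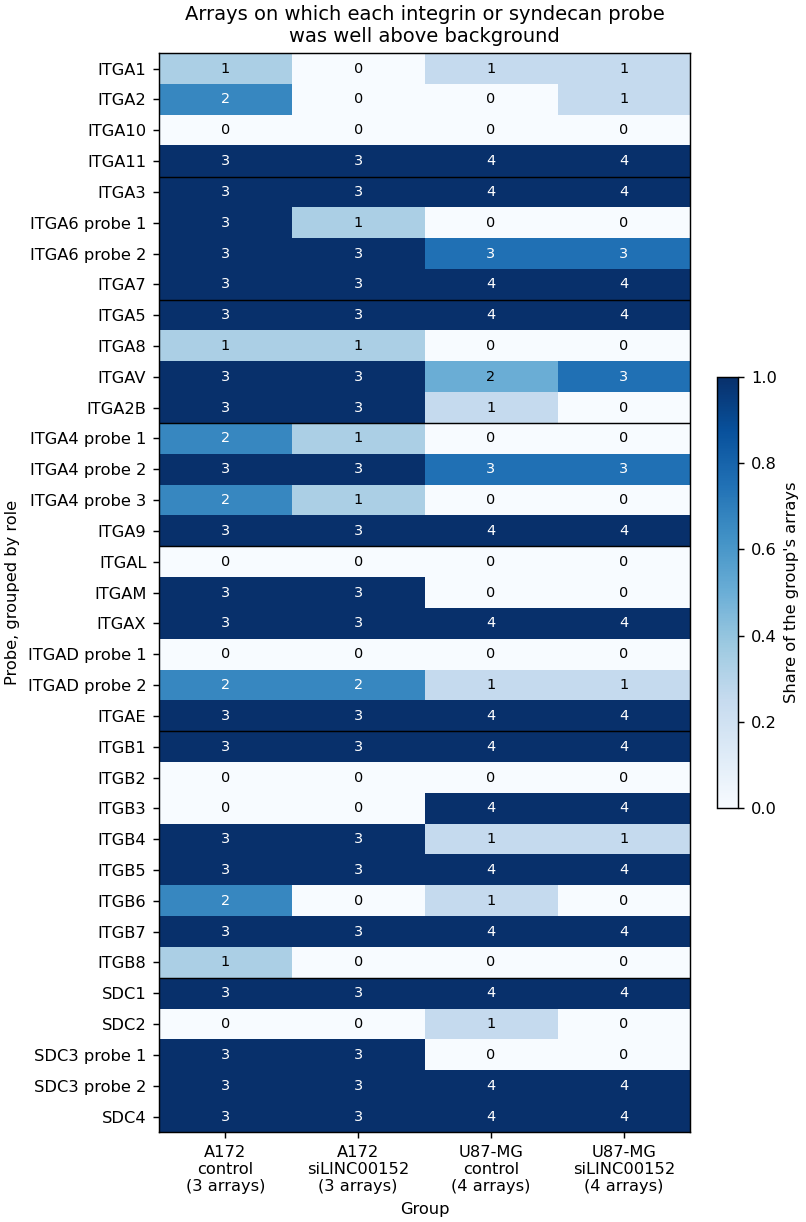
Number of arrays in each group on which each of the 35 integrin and syndecan probes (vertical axis, by role) was well above background, with shading for the share of the group's arrays. ITGB3 is on 8 of 8 U87-MG arrays and 0 of 6 A172 arrays, and 13 probes are on all 14.

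Knockdown was compared with control in each line to describe the adhesion receptors after loss of LINC00152. SDC4 was the 1 member of 21 tested that fell in A172, to 32.7% of control, and the other 20 did not pass. A probe passed, or was called, if its false discovery rate was under 0.2 and its log2 fold change exceeded 0.5 in size, and 0.184% of all 28337 probes tested in A172 did so. In U87-MG limma called 0 of 17 members, against 0.0502% of 21919 probes tested. An unadjusted p under 0.05 was found there for 1 of 17 members (SDC4), against 2.31% of all probes tested.

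Same-numbered arrays deviated together, and with the set number as a block the fit called more probes throughout the array. In A172 the blocked fit called 3 of 21 members, SDC4, ITGA6 and ITGA3, each lower, against 3.26% of all probes (1.09% higher and 2.17% lower). The ITGA6 probe among them met the filter through its control arrays alone, so a lower knockdown value was built into its choice. In U87-MG it called 2 of 17, SDC4 lower and ITGAE higher, against 4.19% of all probes (2.12% higher and 2.07% lower). Without the dim U87-MG set 3, U87-MG had 0 members called, and 1 with the block, against 13 of all 21919 probes and, with the block, 729.

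The members as a list were centred near 0. Their median log2 fold change was -0.0069 in A172 (11 of 21 lower), against 0.021 over all probes tested, and -0.11 in U87-MG (10 of 17 lower), against -0.017. An unadjusted p under 0.05 was found for 14.3% of the members and 2.28% of all probes in A172, and for 5.88% and 2.31% in U87-MG. With the block these shares were 28.6% and 10.7% in A172, and 29.4% and 16.9% in U87-MG. The A172 member shares count the ITGA6 probe that met the filter through its control arrays alone, which is 1 of the 3 members without the block and 1 of the 6 with it. The U87-MG share with the block counts ITGAV among its 5 members, and ITGAV met the filter through its knockdown arrays alone, where it is higher. The shares that count ITGA6 or ITGAV are therefore no support for a change of the list. The U87-MG share without the block is 1 member, SDC4, and a change of the list as a whole was not tested.

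**Figure D2:**
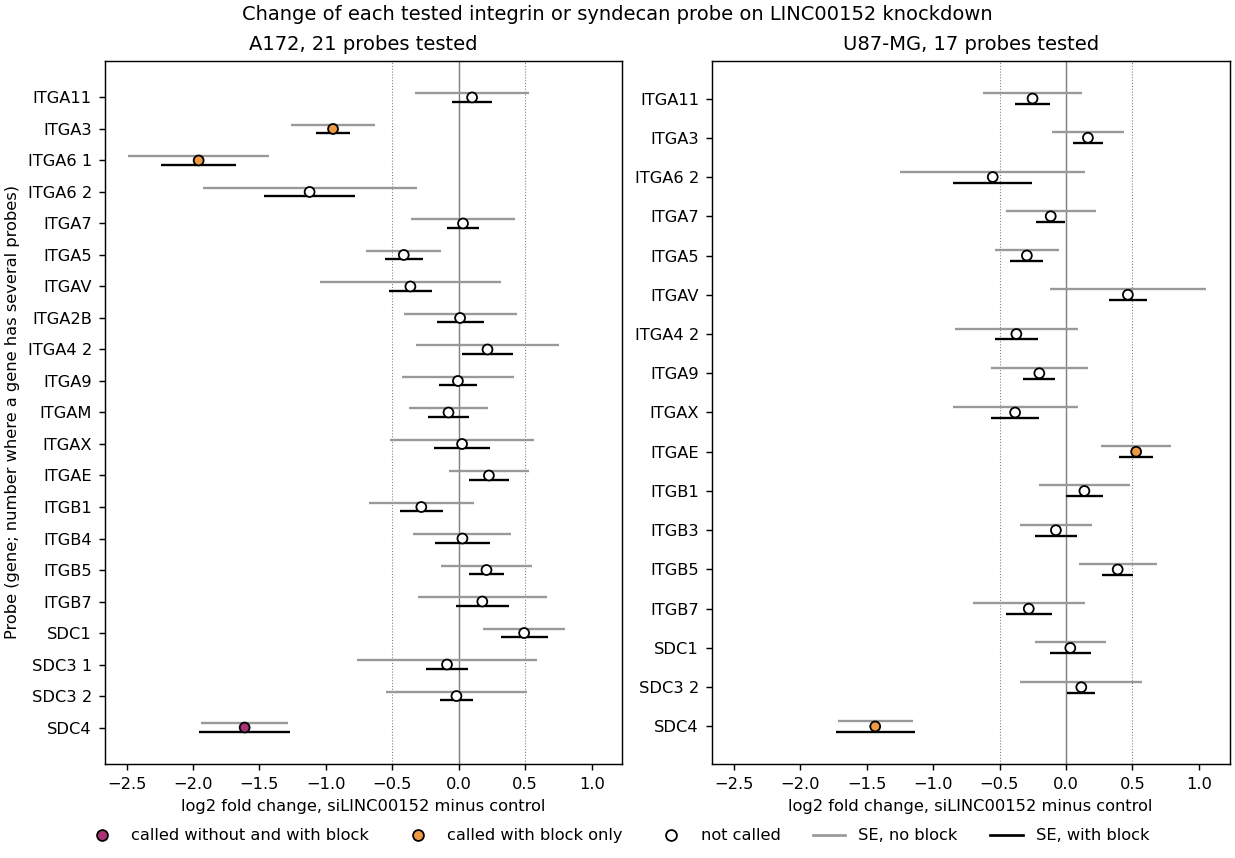
Log2 fold change (horizontal axis, siLINC00152 minus control) of each tested integrin or syndecan probe in A172 and U87-MG, with bars for 1 SE without the block (grey) and with it (black) and dotted lines at the size threshold of 0.5. SDC4 lies at -1.61 in A172 and -1.44 in U87-MG.

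SDC4 encodes the syndecan that works with integrins in focal adhesions. In A172 its control values were 1.37, 0.57 and 0.83 (mean 0.92 ± 0.41, SD, n = 3), and its knockdown values were -1.48, -0.12 and -0.46 (mean -0.69 ± 0.71). In U87-MG its control values were 3.59, 3.62, 3.36 and 3.61 (mean 3.55 ± 0.12, SD, n = 4), and its knockdown values were 2.02, 2.33, 2.08 and 2.03 (mean 2.11 ± 0.15). Every knockdown array lay below every control array of its line, and A172 set 1 had both the highest control and the lowest knockdown value. SDC4 fell in A172 by 1.61 on the log2 scale (SE 0.325, lower in 3 of 3 sets, limma's adjusted p = 0.129, with the block 0.0974). In U87-MG its log2 fold change was -1.44 (SE 0.281, lower in 4 of 4 sets), which missed the threshold without the block (adjusted p = 0.259) and passed with it (adjusted p = 0.0902). Without the dim U87-MG set 3 the U87-MG value was -1.48, with an adjusted p of 0.408 and, with the block, 0.161. The difference between the lines was -0.18 (SE 0.430, adjusted p = 1.00).

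The SDC4 call in A172 without the block was lost when some arrays were left out, while its direction stayed lower. Its adjusted p was 1.00 without A172 set 1, where the log2 fold change was -0.99, and 1.00 without set 3, and 0.394, 0.351 and 0.262 without U87-MG sets 1, 2 and 4, whose spread the fit shares. Leaving out single A172 arrays gave 0.585 (control 1), 0.450 (control 3), 0.388 (knockdown 1) and 0.371 (knockdown 3), and single U87-MG arrays 0.236 (control 1), 0.221 (control 2), 0.213 (knockdown 1) and 0.204 (knockdown 2). With the block the A172 call was lost without A172 set 3 (0.352), and the U87-MG call without U87-MG set 1 (0.249), set 2 (0.230) or set 4 (0.236). Without the block, SDC4 was called in U87-MG when A172 set 1 (adjusted p = 0.0307), set 2 (0.164), knockdown 1 (0.0547) or knockdown 2 (0.169) was left out. Among the other settings tried, the A172 call of SDC4 was lost without a filter on dim probes (adjusted p = 0.297), with each line fitted by itself (0.787) and at an FDR under 0.05. With normexp and quantile scaling it held at a log2 fold change of -0.99, and SDC4 was then called in U87-MG too (-1.22, adjusted p = 0.012). It was also called there with the line fitted by itself (0.0774), with the trended robust eBayes (0.167) and averaged per gene (0.161).

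Since SDC4 is the member on which the results turn, its promoter is shown as RefSeq gives it for GRCh38.p14, a window of 300 bases around the gene's start, chr20:45348375-45348674 on the minus strand, with matches to the GC box (GGGCGG, either strand, overlaps allowed) in capitals.
SDC4: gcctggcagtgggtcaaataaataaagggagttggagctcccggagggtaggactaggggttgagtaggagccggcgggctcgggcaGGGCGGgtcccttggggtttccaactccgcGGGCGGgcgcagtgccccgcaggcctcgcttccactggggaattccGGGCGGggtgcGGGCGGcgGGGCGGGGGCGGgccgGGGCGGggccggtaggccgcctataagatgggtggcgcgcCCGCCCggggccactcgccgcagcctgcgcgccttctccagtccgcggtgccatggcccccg
It holds 8 matches, and how many promoters hold as many was not counted. At least 1 match is held by 45% of all 35116 promoters in the table and by 15 of the 26 promoters of member genes. Those 26 belong to 20 of the 30 member genes, and 11 of the 20 genes have a promoter with a GC box. The CCAAT box (CCAAT), AP-1 motif (TGANTCA), TEAD motif (GGAATG) and E-box (CACGTG) are not in the SDC4 window, and are in 34.6%, 7.71%, 14% and 7.26% of all promoters. A match is a stretch of letters and not a measured site.

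The other syndecans did not pass in either line. SDC1, the main syndecan of epithelial cells, was at a log2 fold change of 0.49 for A172 (higher in 3 of 3 sets, adjusted p = 1.00, with the block 0.346) and 0.033 for U87-MG. SDC3, a syndecan of nervous tissue, was measured by 2 probes in A172, with log2 fold changes of -0.089 and -0.018, and by 1 of them in U87-MG, with 0.12. SDC2 was not tested in either line, since it was well above background on 1 array of 14.

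**Figure D3:**
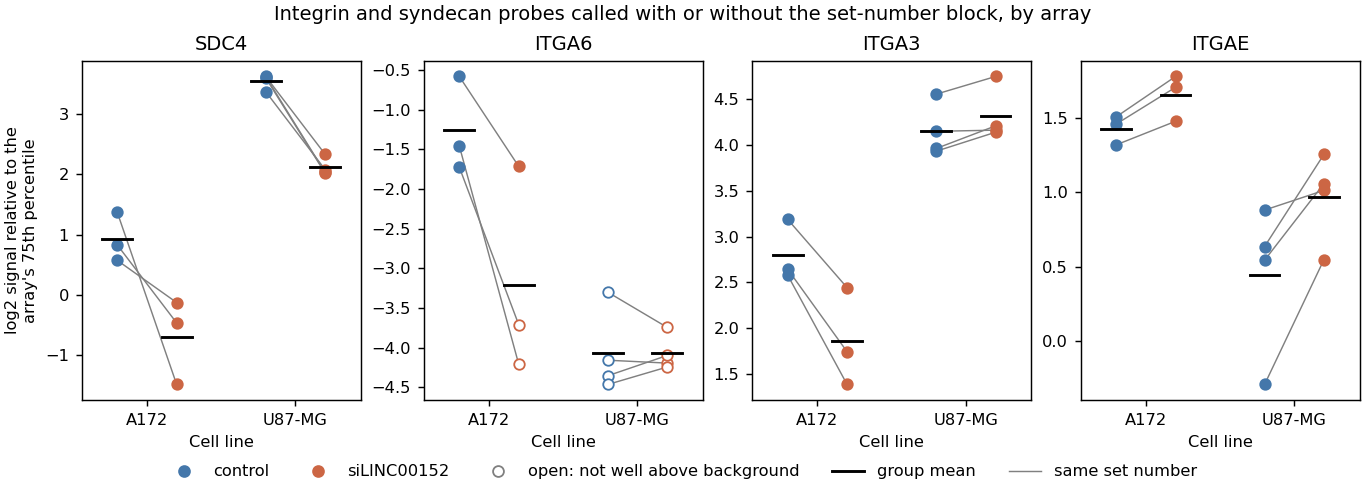
Log2 signal relative to the array's 75th percentile (vertical axis) of the SDC4, ITGA6, ITGA3 and ITGAE probes on every array, with lines joining arrays of a set, bars for group means and open circles where the probe was not well above background. SDC4 is lower in each of the 7 sets, and ITGA3 is lower in 3 of 3 A172 sets and higher in 4 of 4 U87-MG sets.

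Among the subunits that bind laminin, the main protein of basement membranes, ITGA3 fell in A172 with the block and none was called in U87-MG, where the 3 probes tested had log2 fold changes from -0.55 to 0.17. ITGA6, which forms laminin receptors with ITGB1 or ITGB4, was measured by 2 probes. The probe A_23_P210176 gave control values of -0.58, -1.46 and -1.73 in A172 and knockdown values of -1.71, -4.21 and -3.71, the last 2 of them not well above background. The groups overlap, because knockdown set 1 lay just above control set 3, but within each set the knockdown array was lower. Its fitted log2 fold change was -1.96 (SE 0.531, limma's adjusted p = 0.567, with the block 0.0230), and -0.46 with normexp and quantile scaling. Since 1 of 3 knockdown arrays was well above background, against 3 of 3 control arrays, the size is not measured on both sides and the call is no support for a fall. In U87-MG this probe was well above background on 0 of 8 arrays.

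The second ITGA6 probe, A_33_P3231447, was well above background on all A172 arrays, with control values of 0.68, 0.20 and 0.10 and knockdown values of -0.12, -1.08 and -1.18. Every knockdown array lay below every control array, yet the log2 fold change of -1.12 (SE 0.804) had an adjusted p of 1.00, and 0.241 with the block. In U87-MG the differences within sets 1 to 4 were 0.19, 0.22, -1.09 and -1.53, so the sets went both ways. Neither array of set 4 was well above background, so the size in that set, and with it the mean over the sets, is uncertain. The 2 ITGA6 promoters in the RefSeq table are shown because this second probe, measured on all A172 arrays, was lower in all 3 A172 sets. They lie on the plus strand at chr2:172427086-172427385 (promoter 1) and chr2:172427336-172427635 (promoter 2) of GRCh38.p14 and overlap, with GC boxes and the E-box in capitals.
ITGA6 promoter 1: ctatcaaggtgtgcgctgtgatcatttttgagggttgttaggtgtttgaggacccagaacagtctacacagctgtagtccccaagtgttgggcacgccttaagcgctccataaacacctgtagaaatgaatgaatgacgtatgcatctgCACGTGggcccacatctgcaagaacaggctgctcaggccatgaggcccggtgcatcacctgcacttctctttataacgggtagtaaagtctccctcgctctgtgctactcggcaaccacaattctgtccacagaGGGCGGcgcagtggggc
ITGA6 promoter 2: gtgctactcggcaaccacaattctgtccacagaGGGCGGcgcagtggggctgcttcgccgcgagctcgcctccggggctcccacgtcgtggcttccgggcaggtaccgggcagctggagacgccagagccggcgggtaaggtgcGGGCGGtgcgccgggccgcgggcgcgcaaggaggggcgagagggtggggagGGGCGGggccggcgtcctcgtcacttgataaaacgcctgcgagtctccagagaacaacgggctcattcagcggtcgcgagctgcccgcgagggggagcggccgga
Promoter 1 holds 1 GC box and 1 E-box, and promoter 2 holds 3 GC boxes.

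ITGA3, the alpha subunit of a laminin receptor with ITGB1, had A172 control values of 3.19, 2.58 and 2.64 and knockdown values of 2.44, 1.38 and 1.74. The groups do not overlap, and the differences within the sets were -0.75, -1.19 and -0.90. Its log2 fold change of -0.95 (SE 0.315) did not pass without the block (adjusted p = 1.00) and passed with it (SE 0.128, adjusted p = 0.0185), also with any 1 of the 7 sets left out. With the slide as the block it did not pass (adjusted p = 0.441). That block groups the A172 arrays as the sets do and leaves the U87-MG arrays, all on 1 slide, without a block. In U87-MG the control values were 3.93, 3.96, 4.56 and 4.15 and the knockdown values 4.14, 4.21, 4.75 and 4.16, which overlap. There the log2 fold change was 0.17 (SE 0.273, higher in 4 of 4 sets, adjusted p with the block 0.466). ITGA7, a laminin receptor subunit of muscle, had fold changes of 0.031 (A172) and -0.11 (U87-MG) on the log2 scale.

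The partners of these subunits did not pass in either line. ITGB1, the beta subunit shared by most matrix-binding alpha subunits, had A172 control values of 4.86, 4.05 and 5.03 and knockdown values of 4.60, 3.74 and 4.75, lower in 3 of 3 sets. Its log2 fold change was -0.28 in A172 (adjusted p with the block 0.678) and 0.14 in U87-MG, where 3 of 4 sets were lower (-0.022, -0.062 and -0.026) and only the dim set 3 was higher (0.67). There the control values were 3.88, 3.64, 3.78 and 4.68 and the knockdown values 3.86, 3.58, 4.44 and 4.66. The groups overlap in both lines. ITGB4, which joins ITGA6 in hemidesmosomes, had A172 control values of -2.79, -1.84 and -2.15 and knockdown values of -2.28, -1.97 and -2.46, with a log2 fold change of 0.027. In U87-MG it was well above background on 1 array of each group and was not tested.

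Effects of knockdown that differ between the lines were tested as the A172 effect minus the U87-MG effect. Without the block limma called 0 of the 16 members tested in both lines and 0.00945% of all 21163 probes. An unadjusted p under 0.05 was found for 1 member (ITGA3, 6.25%) and 0.789% of all probes, and with the block for 3 members (18.8%, with ITGAV among them) and 8.31%. ITGA3 had a difference of -1.11 (SE 0.417, adjusted p = 1.00), which passed with the block (SE 0.169, adjusted p = 0.121), the 1 member of 16 to do so, against 0.421% of all probes. That call was lost without A172 set 1 (adjusted p = 0.283), set 2 (0.447) or set 3 (0.541) and without U87-MG set 1 (0.379), set 2 (0.336) or set 4 (0.246), and it stayed without the dim U87-MG set 3 (0.174).

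ITGAE, the alpha subunit of a receptor for E-cadherin on lymphocytes within epithelia, was the member that rose in U87-MG with the block. Its U87-MG control values were 0.64, 0.88, -0.29 and 0.54 and its knockdown values 1.26, 1.01, 0.55 and 1.06. The groups overlap, control set 3 being the lowest, and the knockdown array was higher in 4 of 4 sets. The log2 fold change was 0.53 (SE 0.261, adjusted p = 1.00, with the block SE 0.129 and adjusted p = 0.124). Without the dim set 3 it was 0.42, under the size threshold, and without the block it was 0.30 with normexp and quantile scaling and 0.28 without control array 3. The call with the block was also lost without U87-MG set 1 (adjusted p = 0.300) or set 4 (0.269), and without A172 set 2 (0.214) or set 3 (0.224). In A172 the control values were 1.32, 1.46 and 1.51 and the knockdown values 1.48, 1.71 and 1.78, with a log2 fold change of 0.23 (adjusted p with the block 0.759).

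ITGB7, the partner of ITGAE, did not pass in either line. Its A172 control values were 0.64, 1.73 and 1.20 and its knockdown values 1.08, 1.70 and 1.32. In U87-MG the control values were 1.84, 1.74, 3.17 and 0.90 and the knockdown values 1.74, 1.48, 2.28 and 1.05. The groups overlap in both lines, with log2 fold changes of 0.18 and -0.28.

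Of the other leukocyte integrins, ITGAX was tested in both lines, with log2 fold changes of 0.024 (A172) and -0.38 (U87-MG), and ITGAM in A172, with -0.078. None passed with or without the block. ITGB2, the shared beta subunit of the leukocyte integrins ITGAL, ITGAM, ITGAX and ITGAD, was well above background on no array, and neither was ITGAL. Of the leukocyte markers, CD14 was well above background on all 14 arrays, CD3E on 12 and PTPRC on 14 by 1 of its 5 probes, and LYZ has no probe. Limma called 0 of CD14, CD3E and PTPRC in either line with or without the block, with 0 at an unadjusted p under 0.05.

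The subunits that bind RGD ligands did not pass in either line. ITGA5, the alpha subunit of the fibronectin receptor, was lower in 3 of 3 A172 sets (log2 fold change -0.41, adjusted p with the block 0.318) and in 4 of 4 U87-MG sets (-0.29, 0.288). ITGAV, which pairs with ITGB1, ITGB3, ITGB5, ITGB6 and ITGB8, had log2 fold changes of -0.36 (A172) and 0.47 (U87-MG). In U87-MG it was well above background on 2 of 4 control and 3 of 4 knockdown arrays, and it met the filter through the knockdown group, where it is higher. Its adjusted p with the block was 0.184, with 4 of 4 sets higher and a change under the size threshold, and its size is uncertain. ITGA2B, the platelet subunit, was at 0.0094 in A172 and was well above background on 1 of 8 U87-MG arrays, where it was not tested. ITGA8 was well above background on 2 A172 arrays and no U87-MG array. Of 4 platelet and megakaryocyte markers, GP9 and GP1BA were well above background on all 14 arrays, PF4 on 9 and PPBP on none. Limma called none of them in either line, with 0 at an unadjusted p under 0.05, with or without the block.

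The collagen-binding subunits were mostly dim. ITGA11, which binds fibrillar collagen, was the 1 tested, with log2 fold changes of 0.10 (A172) and -0.25 (U87-MG), neither called. ITGA2, the collagen receptor of platelets and epithelia, was well above background on 2 of 3 A172 control arrays and 0 of 3 knockdown arrays. Its A172 control values were -2.29, -3.65 and -2.62, and its knockdown values were -3.77, -4.30 and -4.11. Every knockdown array lay below every control array, but the probe was too dim to be tested. In U87-MG 0 of 4 control and 1 of 4 knockdown arrays were well above background for it, and the knockdown value was higher in 3 of 4 sets. ITGA1 was well above background on A172 control set 1 and on both arrays of U87-MG set 4, and ITGA10 on none.

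The subunits ITGA4 and ITGA9, which bind fibronectin variants and VCAM1, did not pass. ITGA9 had log2 fold changes of -0.0069 (A172) and -0.20 (U87-MG). Of 3 ITGA4 probes, A_33_P3224878 was tested in both lines, at a log2 fold change of 0.22 in A172 (higher in 3 of 3 sets) and -0.37 in U87-MG (lower in 3 of 4). The other ITGA4 probes were each well above background on 3 A172 arrays and no U87-MG array, too dim to be tested. Of these, A_33_P3353816 was lower in 3 of 3 A172 sets, opposite to the tested probe, and A_23_P56505 in 1 of 3.

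Among the other beta subunits, ITGB5, a partner of ITGAV, was higher in 3 of 3 A172 sets (log2 fold change 0.21) and in 4 of 4 U87-MG sets (0.39). Its adjusted p with the block in U87-MG was 0.176, but its change was under the size threshold. ITGB3 had a log2 fold change of -0.076 in U87-MG, with values of 1.76, 1.89, 1.56 and 2.16 in control and 1.80, 1.68, 1.80 and 1.79 in knockdown, so the groups overlap. ITGB6 and ITGB8, which pair with ITGAV and activate TGF-beta, were too dim to be tested. ITGB6 was well above background on 2 of 3 A172 control arrays and ITGB8 on 1 of 3, and neither on an A172 knockdown array. The A172 groups overlap for both.

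Around the receptors, 104 genes in 5 lists were measured by 137 probes. Without the block limma called 0 of the 110 probes tested in A172 and 0 of the 93 tested in U87-MG, with 7 and 4 at an unadjusted p under 0.05. That cut was met by 2.28% of all probes in A172 and 2.31% in U87-MG. With the block 9 in A172 (8.18%, 6 of them lower) and 6 in U87-MG (6.45%, 1 of them lower) were called. These shares stand beside 3.26% and 4.19% of all probes.

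The integrin ligands held most of these calls. In A172, where 30 probes of 25 of the 29 ligand genes were tested, 3 probes rose and 4 fell with the block. Of all probes tested there, 1.09% were called higher and 2.17% lower. LAMA4, a laminin chain of vessel walls, fell by both of its probes (log2 fold changes -1.39 and -1.30, adjusted p with the block 0.0114 and 0.0719). The groups overlap for both LAMA4 probes, and the knockdown array was lower in 3 of 3 sets. TGFB1, a growth factor whose latent form integrins bind and activate, fell by 0.76 (adjusted p with the block 0.0371), and LAMB3, a chain of the epithelial laminin bound by ITGA3 and ITGA6, fell by 0.98 (0.0418). THBS1, a matrix protein that binds integrins and CD47, rose by 0.99 and by 0.57 on its 2 probes (0.0979 and 0.127), and CCN2, a matricellular protein, rose by 0.82 (0.139). The second THBS1 probe and CCN2 were named after their values were seen. With the set number as a random effect CCN2 was not called in A172. With normexp and quantile scaling and no block LAMB3 was at -0.20 and the second LAMA4 probe at -0.44. Without the block, leaving out A172 knockdown array 1 moved the LAMA4 probes to -0.85 and -0.75, and leaving out A172 set 1 moved CCN2 to 0.54. The blocked calls held with any 1 of the 7 sets left out for the first LAMA4 probe, and in 6 of 7 cases for TGFB1, 5 for LAMB3, 5 for the first THBS1 probe, 4 for the second LAMA4 probe, 2 for the second THBS1 probe and 2 for CCN2.

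In U87-MG, where 25 probes of 20 of the 29 ligand genes were tested, 4 probes rose and 1 fell with the block. Of all probes tested there, 2.12% were called higher and 2.07% lower. COL1A2, a chain of fibrillar collagen, rose by 0.95 (adjusted p with the block 0.0365) and CCN2 by 0.83 (0.0896). The groups overlap for both genes, and the knockdown array was higher in 4 of 4 sets. CCN1, a matricellular protein related to CCN2, rose by 0.97 (0.124), LAMB3 rose by 0.55 (0.135), and TGFB1 fell by 0.51 (0.0899). TGFB1 and CCN2 went the same way in both lines and LAMB3 the opposite way. Without the dim set 3, COL1A2, CCN2, CCN1 and TGFB1 were still called with the block (0.86, 0.76, 0.62 and -0.58), and LAMB3 was not (0.56, adjusted p = 0.208). With any 1 of the 7 sets left out the blocked call held in 7 cases for COL1A2, 4 for CCN2, 4 for TGFB1, 2 for CCN1 and 2 for LAMB3. With normexp and quantile scaling and no block CCN2 was at 0.37, CCN1 at 0.55 and LAMB3 at 0.27. CCN2 was not well above background on the arrays of set 3, and without the block it was at 0.19 without control array 3, 1.41 without knockdown array 3 and 0.49 without knockdown array 4. CCN1 was at 0.58 without control array 3.

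The difference between the lines was -1.53 for LAMB3 and -1.49 and -1.89 for the LAMA4 probes, each called with the block (adjusted p = 0.105, 0.109 and 0.166) and not without it (adjusted p = 1.00). The second LAMA4 probe was not well above background on U87-MG control array 3. Its change in that set was 1.46, against 0.24 to 0.41 in the other U87-MG sets, so the size of -1.89 is uncertain. With normexp and quantile scaling and no block the differences were -0.47 for LAMB3 and -0.69 for the second LAMA4 probe, and that of the first LAMA4 probe was -0.95 without A172 knockdown array 1. The 3 calls with the block held without the dim U87-MG set 3 and were lost with any other set left out, at adjusted p up to 0.397 for LAMB3 and up to 0.433 and 0.546 for the LAMA4 probes. With a set left out, the blocked difference calls over all probes numbered 101 without U87-MG set 3 and 2 to 9 otherwise, against 89.

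Of the surface proteins that associate with integrins, CD9, a tetraspanin, fell in A172 with the block by 0.54 (adjusted p = 0.157). CD47, the receptor of THBS1, rose in U87-MG by 0.53 (0.153), and leaving out U87-MG control array 3 turned its fold change, without the block, to -0.056, while it was 0.86 without control array 4, 0.96 without knockdown array 3 and 0.32 without knockdown array 4. Its U87-MG groups overlap. Its blocked call was lost with any 1 of the 7 sets left out (0 of 7 held), and with the set number as a random effect. The blocked calls of CD9 and TNS2 held in 1 of 7. Of the plaque and activator genes, TNS2, a tensin that binds integrin tails, fell in A172 with the block by 0.61 (0.136), and none of the 40 probes tested in U87-MG was called. The genes of heparan sulfate synthesis and the syndecan partners gave no call among the 16 genes tested in A172 and the 12 in U87-MG, with limma's unadjusted p under 0.05 for 0 without the block and for 3 and 2 with it. The glypicans, which also carry heparan sulfate, gave none among 5 and 4 genes tested, with 0 at an unadjusted p under 0.05 without the block and 0 and 1 with it.

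**Figure D4:**
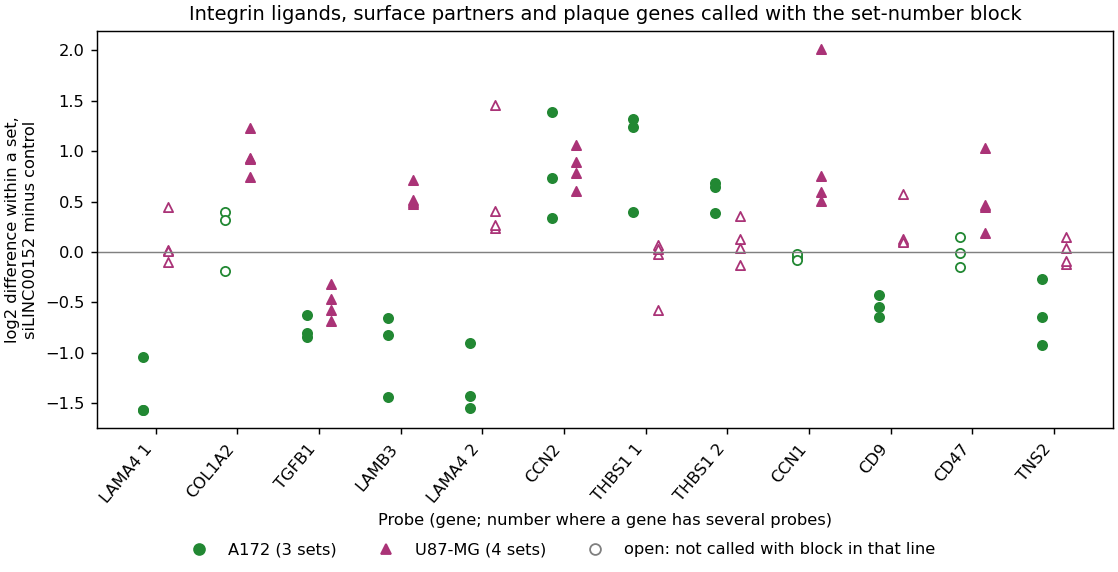
Log2 difference within each set (vertical axis, siLINC00152 minus control) of the ligand, surface partner and plaque probes called with the block in at least 1 line, with circles for A172, triangles for U87-MG and open symbols where the probe was not called in that line. LAMB3 is lower in 3 of 3 A172 sets and higher in 4 of 4 U87-MG sets.

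Other cell types were checked by their markers. Of the endothelial markers CDH5 and VWF were well above background on all 14 arrays and PECAM1 on 6 at most by any of its 3 probes, and of the epithelial markers CLDN4 was on 14, EPCAM on 1 and CDH1 on none. Limma called 0 of them in either line with or without the block, with 0 at an unadjusted p under 0.05. Among the glioma markers CD44, a hyaluronan receptor, fell in A172 with the block by 1.13 on 1 of its 2 probes (adjusted p = 0.00807, and 1.00 without the block). With the block the call held with each set left out (adjusted p up to 0.0813). Without the block, leaving out 1 array moved its fold change to between -1.51 and -0.67, the latter without A172 control array 1. Under the other settings tried it reached -0.69. The other probe was at -0.24 (adjusted p with the block 0.694), lower in 2 of 3 sets. In U87-MG the probes were at 0.12 and 0.20 and were not called. The difference between the lines of the first probe was -1.25, called with the block (adjusted p = 0.0861) and with 1 of 7 sets left out, the dim U87-MG set 3. Without the block and with 1 array left out, this difference ranged from -1.63 to -0.79.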

How the data were processed

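Total RNA of the 14 cultures was labelled with Cy3 and hybridised to one-colour Agilent arrays. The authors deposited scanner output in which Feature Extraction 11.5.1.1 gave each spot an intensity, on a design annotated to hg19. They also deposited log2 values that they normalized between arrays (each array's ranks carry nearly the same values, and the order equals that of the processed signal), used here as an alternative.

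The processed signal was taken to log2, and the 75th percentile of the array's non-control spots was subtracted. Spots marked as non-uniform or population outliers were left out, and the spots of a probe were averaged. No spot was saturated. A probe was well above background on an array when at least 0.5 of its spots were. Testing in a line required this on 3 or more arrays of its control or knockdown group, and a usable spot on 2 or more arrays of each of the 4 groups. The 4 group means were fitted over all 14 arrays with limma 3.58.1 (lmFit and eBayes, R 4.3.3), with Benjamini-Hochberg adjustment within each line and over the probes tested in both lines for the difference. The fits were tested on simulated data.

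Set numbers were checked as pairs: same-numbered control and knockdown arrays had correlated deviations from their group means (0.675 to 0.794 in A172, 0.373 to 0.864 in U87-MG), against -0.701 to -0.0436 and -0.772 to 0.411 for differently numbered ones. In A172 each set was on its own slide, so set and slide cannot be told apart there. The arrays of U87-MG set 1 correlated at 0.373. Its control array reached 0.403 with knockdown array 2, and its knockdown array 0.411 with control array 2. Values with the set number as a block are given beside those without it where they change a call or count.

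Probes were named by accession through the RefSeq gene table of GRCh38.p14, which named 29029 of 50599. Values on every array are given for members called with or without the block and for their subunit partners, and other members by ranges and counts. Of each pathway list up to 5 called probes per line are named, by smallest p with the block, and 2 further ligand probes of A172 were added after their values were seen. The members and lists were chosen with earlier results of these data known. Alternatives covered background correction, scaling, the filters, the block, the slide, the eBayes options, averaging per gene, the threshold, and leaving out sets and arrays. Mean signal was not among the columns, so normexp (offset 50, followed by quantile scaling) took the median signal. Promoters were searched with Python 3.11.15 and pandas 2.3.3, and figures drawn with matplotlib 3.10.9.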

Additional observations from a re-analysis of the deposited data

Results flagged for a closer look

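In groups of 4 arrays, the highest or lowest value was compared with the others by its gap relative to the range of the group (Dixon's critical value for 4 values), and 9 of 58 groups had a value that far from the others. Chance gives about 1 in 20 groups. The groups of 3 in A172 were not tested in this way. In U87-MG control, array 3 stood below the others for SDC4 (3.36) and for CCN1 (-1.71), and above them for ITGA7 (3.93). In U87-MG knockdown, array 3 was the high one for ITGA3 (4.75). Array 2 of the knockdown was low for SDC1 (1.65) and for ITGB3 (1.68), and high for ITGB4 (-1.45). Knockdown array 4 was low for the ITGA6 probe A_33_P3231447 (-4.39) and high for ITGA1 (-1.95). Of these values, -4.39 for ITGA6 and -1.71 for CCN1 were not well above background, and for ITGA1 and ITGB4 the other 3 arrays of the group were not, so in these 4 groups the gap is to or from the background. Set 3 is the dimmest in U87-MG, and its part in the other values was not tested. The effect on ITGA3 differed between the lines by -1.11 (A172 minus U87-MG), with every A172 set lower and every U87-MG set higher. The difference was tested, with an adjusted p of 1.00 without the block and 0.121 with it.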

How the results depend on the processing

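With the replicate block (set number), called members went from 1 to 3 in A172, from 0 to 2 in U87-MG and from 0 to 1 for the difference between the lines, and all probes from 52 to 924 and from 11 to 918. The block as a random effect gave 3, 2 and 1 members and 1230 and 1118 probes, and the slide as a block gave 2 members in A172 and 97 and 23 probes. Without a filter on dim probes A172 had 0 members and 34 probes, and with probes well above background on every array 33 and 7 probes were called. Fitting each line by itself gave 0 members and 14 probes in A172 and 1 member in U87-MG, and gives no difference between the lines. At an FDR below 0.05 A172 had 0 members and 27 probes, and U87-MG 7 probes. Normexp with quantile scaling gave 1 member and 41 probes in U87-MG, 19 higher and 22 lower, against 2 and 9. The trended robust eBayes and averaging per gene each gave 1 member in U87-MG. Leaving out a set or an array gave 0 to 1 members in each line, 0 to 0 for the difference, 4 to 127 probes in A172 and 5 to 17 in U87-MG. With the block and a set left out, an alternative chosen after seeing the data, members numbered 2 to 4 in A172, 0 to 2 in U87-MG and 0 to 1 for the difference, and all probes 226 to 1411, 275 to 755 and 2 to 101, against 924, 918 and 89. CD47 in U87-MG ranged from -0.056 (without control array 3, a reversal) to 0.96 with an array left out. The stricter filter left the ITGA6 probe A_23_P210176 untested. Under the alternatives 28 log2 fold changes of called probes were followed, and all but that of CD47 kept their sign. Other tested probes named in the text were part of the fits, but their values under the alternatives are not given. With the block, 4 members were called in A172 without U87-MG set 3 or set 4. The member called there beside SDC4, ITGA6 and ITGA3 is not named. The cause of the shifts was not tested. Signal over background limits U87-MG most, where a median of 46.0% of spots were well above background.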
